A study of Mus musculus with 4 samples.

Results

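Genes of the cytotoxic granule and of natural killer (NK) cell receptors were examined in mouse effector T helper cells with a low or a high surface level of CD30, the TNF receptor family member that Tnfrsf8 encodes. The 10 genes were Gzma, Gzmb, Prf1, Nkg7, Klrd1, Klrk1, Klrc1, Klrg1, Cd7 and Cd8b1, taken by name as all probe sets that the platform annotation assigns to them, out of 18193 genes in the table. They had 12 probe sets, with 2 each for Prf1 and Klrc1 and 1 each for the other 8 genes. Splenic CD4 T cells were cultured for 6 days as Th1 cells with IL-2 at 30 U/ml, IL-12 at 100 U/ml and anti-IL-4 at 1 µg/ml, or as Th17 cells with IL-6, IL-1β and IL-23 at 10 ng/ml each and anti-IL-4 and anti-IFN-γ at 10 µg/ml each. By the methods, cells for such cultures carried a transgenic T cell receptor for ovalbumin. A peptide of ovalbumin and irradiated splenocytes depleted of T cells were present in the cultures. CD30low and CD30high cells of each lineage were sorted, which gave 4 populations with 1 Affymetrix whole-genome mouse array for each.

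Cytotoxic lymphocytes kill by releasing granules in which perforin opens a path for granzymes, serine proteases that start death programs in the target cell. NK cell receptors of the lectin-like family, among them CD94, NKG2A and NKG2D, read MHC class I and stress ligands on the target and either restrain or trigger that release. This machinery is best known from CD8 T cells and NK cells, while T helper cells of the Th1 type can take up parts of it.

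With 1 array per group there is no replicate error, and the ratio of 2 arrays has no p-value. The signals are linear probe set intensities. They describe 1 probe set in different samples and are not compared here between genes. Ratios were taken with a floor of 100, so that a fold against a dimmer signal is a lower bound (at least N-fold). The fold rule asked for a ratio of 2 or more in either direction and a signal of 300 or more on the brighter array. The nearest measure of precision was the scatter between probe sets of the same gene, with an SD per probe set of 0.24 on the log2 scale for the CD30 ratio in Th1 cells, 0.20 in Th17 cells, 0.30 for the Th17 over Th1 ratio of CD30low cells and 0.33 for that of CD30high cells. In this bulk RNA, fewer expressing cells and less RNA per cell cannot be told apart.

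The labels of the cells were first set against marker genes. All 7 T cell markers with a named probe set, Cd4 among them, reached 100 on every array. Ifng gave 2506 and 3423 in CD30low and CD30high Th1 cells against 106 and 76.0 in the Th17 populations, and Il17a gave 37.7 and 49.4 against 1398 and 14443.2. Tnfrsf8 itself gave 13.3 (CD30low) and 51.1 (CD30high) in Th1 cells and 34.9 (CD30low) and 132 (CD30high) in Th17 cells, and so reached 100 on a single array. The labels give CD62Llow starting cells for the CD30low populations and CD62Lhi ones for the CD30high populations, whereas the methods describe naive cells throughout, so the gate and the starting population cannot be told apart where the labels hold. The strain and sex of the animals behind each array are not given in the labels. Eif2s3y, a gene of the Y chromosome, gave 1784 and 1640 on the Th1 arrays and 1.41 and 9.39 on the Th17 arrays, so lineage and animal source cannot be told apart.

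Of the 10 genes, 8 had a signal of at least 300 on some array. The Prf1 and Klrg1 signals did not reach 300 anywhere, and their ratios are given as values only.

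**Figure D1:**
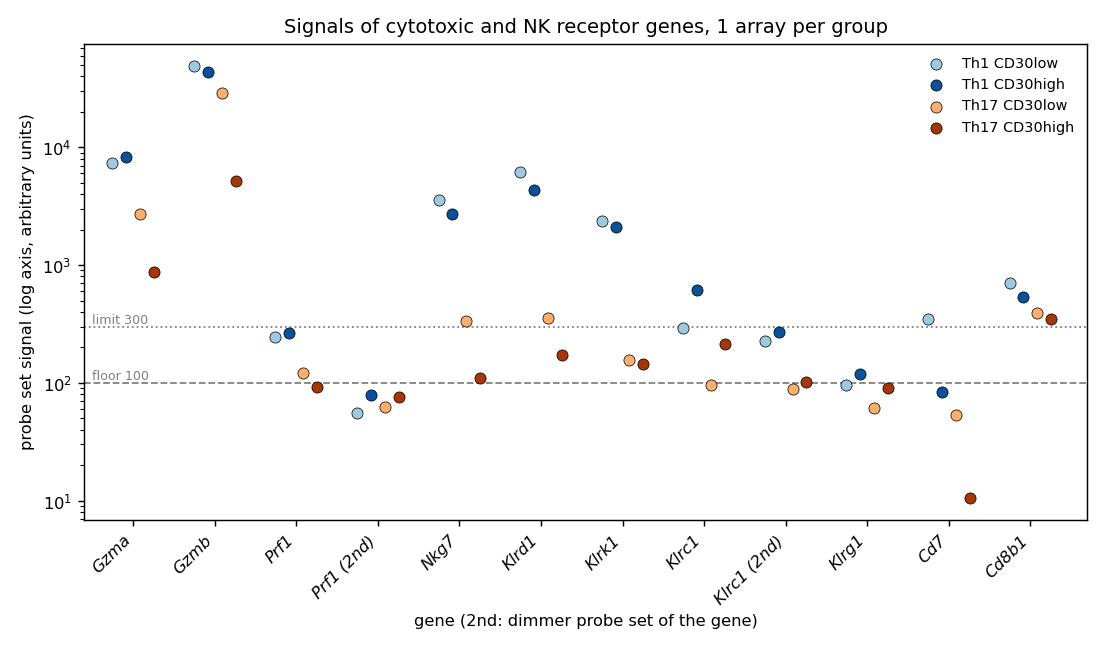
Signal of all 12 probe sets of the 10 genes on the 4 arrays (log axis, arbitrary units), with 1 point per array, light points for CD30low and dark points for CD30high cells, blue for Th1 and orange for Th17, and the floor of 100 and the signal limit of 300 drawn as lines. Gzmb stood at 49398.3 and 43327.9 in the Th1 populations and went from 28882 to 5155 between CD30low and CD30high Th17 cells, while Klrk1 lay at 2359 and 2108 in Th1 and at 156 and 145 in Th17 cells.

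The granule genes held the largest CD30 differences among these genes in Th17 cells. Gzmb encodes granzyme B, the granule protease that cleaves caspases and their substrates. Its signal was 49398.3 (CD30low) and 43327.9 (CD30high) in Th1 cells and 28882 (CD30low) and 5155 (CD30high) in Th17 cells. The CD30high Th17 population stood alone, 5.60-fold below the CD30low Th17 population, whereas the Th1 populations differed 1.14-fold. Counted from the brightest probe set, Gzmb ranked 74 (CD30low) and 107 (CD30high) in Th1 cells. In Th17 cells it ranked 162 (CD30low) and 1592 (CD30high). Whether ratios between signals near the top of the scale are compressed was not tested. Gzma encodes granzyme A, a protease with another cleavage preference. Its signal was 7385 (CD30low) and 8346 (CD30high) in Th1 cells and 2698 (CD30low) and 874 (CD30high) in Th17 cells. It was again lowest in CD30high Th17 cells, 3.09-fold below their CD30low counterpart, and the Th1 populations differed 1.13-fold in the other direction.

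Nkg7 encodes a membrane protein of the cytotoxic granule that takes part in its exocytosis. Its signal was 3586 (CD30low) and 2695 (CD30high) in Th1 cells and 336 (CD30low) and 109 (CD30high) in Th17 cells. The Th17 populations lay far below the Th1 populations and differed 3.07-fold from each other, against 1.33-fold between the Th1 populations. Prf1 encodes perforin, the pore-forming protein of the granule. Its brighter probe set read 247 (CD30low) and 264 (CD30high) in Th1 cells and 121 (CD30low) and 92.4 (CD30high) in Th17 cells, and its other probe set stayed below 100 on all 4 arrays, between 55.6 and 79.2. The brighter Prf1 probe set was higher on the Th1 arrays and close between the gates, at signals where the fold rule was not applied.

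The proximal promoters of 3 genes that were lower together in CD30high Th17 cells are shown for reference, with that of Klrc1, which was higher in CD30high Th1 cells. Each run is the 250 bases before the annotated start, read 5′ to 3′ on the gene's strand from RefSeq on GRCm38.p6. It lies at chr14:56262335-56262584 on the minus strand for Gzmb, at chr13:113100982-113101231 on the minus strand for Gzma, at chr7:43436888-43437137 on the plus strand for Nkg7 and at chr6:129678974-129679223 on the minus strand for Klrc1. Capitals mark matches on either strand to 4 motifs that were chosen with these sequences in view, TGTGGT for RUNX factors, GGTGTGA for T-box factors, TGANTCA for AP-1 and TTCNNNGAA for STAT factors.
Gzmb: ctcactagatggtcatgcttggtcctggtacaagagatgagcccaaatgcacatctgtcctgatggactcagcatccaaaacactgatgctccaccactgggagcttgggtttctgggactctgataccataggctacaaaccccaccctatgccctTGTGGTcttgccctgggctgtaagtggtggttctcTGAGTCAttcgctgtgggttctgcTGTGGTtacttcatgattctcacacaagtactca
Gzma: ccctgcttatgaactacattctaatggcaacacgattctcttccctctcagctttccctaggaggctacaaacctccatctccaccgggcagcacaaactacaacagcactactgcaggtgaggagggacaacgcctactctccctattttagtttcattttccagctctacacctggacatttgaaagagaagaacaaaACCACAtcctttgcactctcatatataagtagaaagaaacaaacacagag
Nkg7: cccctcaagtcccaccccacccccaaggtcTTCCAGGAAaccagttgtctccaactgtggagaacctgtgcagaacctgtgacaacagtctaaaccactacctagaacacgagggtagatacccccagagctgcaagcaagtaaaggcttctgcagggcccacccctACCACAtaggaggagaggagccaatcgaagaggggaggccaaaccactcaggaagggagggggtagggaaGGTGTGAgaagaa
Klrc1: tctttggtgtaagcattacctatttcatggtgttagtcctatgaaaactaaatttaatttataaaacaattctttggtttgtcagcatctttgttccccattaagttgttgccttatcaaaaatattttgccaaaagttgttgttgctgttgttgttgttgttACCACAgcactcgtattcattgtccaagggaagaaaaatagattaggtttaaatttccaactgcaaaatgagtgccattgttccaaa

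A promoter entry was used for 6 of the 10 genes, these 4 with Prf1 and Klrk1. The RUNX letters occurred in all 6, against 14% of 32851 promoters of this length, and in both directions of change, since Gzmb and Klrc1 each held them. Because the motifs were chosen with promoter sequences in view, these shares are a description and not a test. The Gzmb promoter held them at -93 to -88 and at -34 to -29 from the start, with the AP-1 letters between them at -58 to -52. The Gzma match lay at -50 to -45, and the Klrc1 match at -87 to -82. In Nkg7 the RUNX match at -83 to -78 was joined by the T-box letters at -13 to -7 and the STAT letters at -220 to -212. The T-box, AP-1 and STAT letters were in 3.33%, 6.75% and 7.02% of all promoters and each in 1 of the 6 here. No matches overlapped, and a match of letters is not a measured site of binding.

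Klrd1 encodes CD94, which pairs with NKG2 chains to form receptors for the non-classical MHC molecule Qa-1. Its signal was 6199 (CD30low) and 4360 (CD30high) in Th1 cells and 355 (CD30low) and 173 (CD30high) in Th17 cells. The lineages were far apart, and within each the CD30high population was the lower one, 1.42-fold in Th1 and 2.05-fold in Th17 cells. Klrk1 encodes NKG2D, an activating receptor for stress-induced ligands. Its signal was 2359 (CD30low) and 2108 (CD30high) in Th1 cells and 156 (CD30low) and 145 (CD30high) in Th17 cells. Klrk1 thus separated the lineages without separating the gates in Th1 cells, with CD30 ratios of 1.12-fold in Th1 and 1.08-fold in Th17 cells. The Th17 ratio came from signals below 300, where the fold rule was not applied.

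Klrc1 encodes NKG2A, the inhibitory partner of CD94. Its brighter probe set read 293 (CD30low) and 616 (CD30high) in Th1 cells and 95.0 (CD30low) and 216 (CD30high) in Th17 cells. It differed from Klrd1 and Klrk1 in being higher in CD30high cells, 2.11-fold in Th1 and at least 2.16-fold in Th17 cells, the latter at signals below 300. The other Klrc1 probe set read 228, 271, 87.9 and 101 in the same order of arrays, a Th1 ratio of 1.19-fold. The log2 Th1 ratios of the probe sets were thus 1.07 and 0.25. The SD of 0.24 is per probe set and not for a difference between 2 of them. It also came from probe sets that reached 300, as the other Klrc1 probe set did not. The Th17 ratio of this other probe set was at least 1.01-fold. Klrg1 encodes an inhibitory receptor for cadherins that marks terminally differentiated lymphocytes. It read 95.1, 118, 61.4 and 89.7 in the same order and was thus near the floor in all 4 populations.

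Cd7 encodes a surface glycoprotein of T and NK cells. Its signal was 349 (CD30low) and 84.0 (CD30high) in Th1 cells and 53.6 (CD30low) and 10.4 (CD30high) in Th17 cells. CD30low Th1 cells were the only population above 100, at least 3.49-fold above CD30high Th1 cells, and the other 3 signals have no order. Cd8b1 encodes the beta chain of the CD8 co-receptor. Its signal was 703 (CD30low) and 541 (CD30high) in Th1 cells and 390 (CD30low) and 350 (CD30high) in Th17 cells, so no pair of arrays compared here reached 2-fold. Its partner Cd8a, the neighbouring gene on chromosome 6, stayed below 100 on every array, at 72.0, 32.2, 92.7 and 67.5.

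The comparison of CD30high with CD30low Th1 cells asked whether CD30 marked a difference in these genes within the lineage that expressed them most. Of the 8 genes with a signal of 300 on either array, 1 was higher (Klrc1) and 1 was lower (Cd7) in CD30high cells. Klrc1, at 293 (CD30low) and 616 (CD30high), reached the limit on the CD30high array only. Cd7, at 349 (CD30low) and 84.0 (CD30high), reached it on the CD30low array only. Over all 7813 genes at that limit 1.28% passed in either direction, 0.794% higher and 0.486% lower, and with every array scaled to a common median the split over all genes turned from 62 higher and 38 lower to 25 higher and 118 lower. The median log2 ratio was -0.18 over the 10 genes and 0.00 over all genes measured. Klrc1 had rank 47 from the highest of the 7813 ratios. The Klrc1 call was lost with median scaling, at a fold limit of 3 and with the mean of its probe sets, and the Cd7 call, a lower bound set by the floor, with a floor of 200. Gzma, with a log2 ratio of 0.18, had -0.06 under median scaling.

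**Figure D2:**
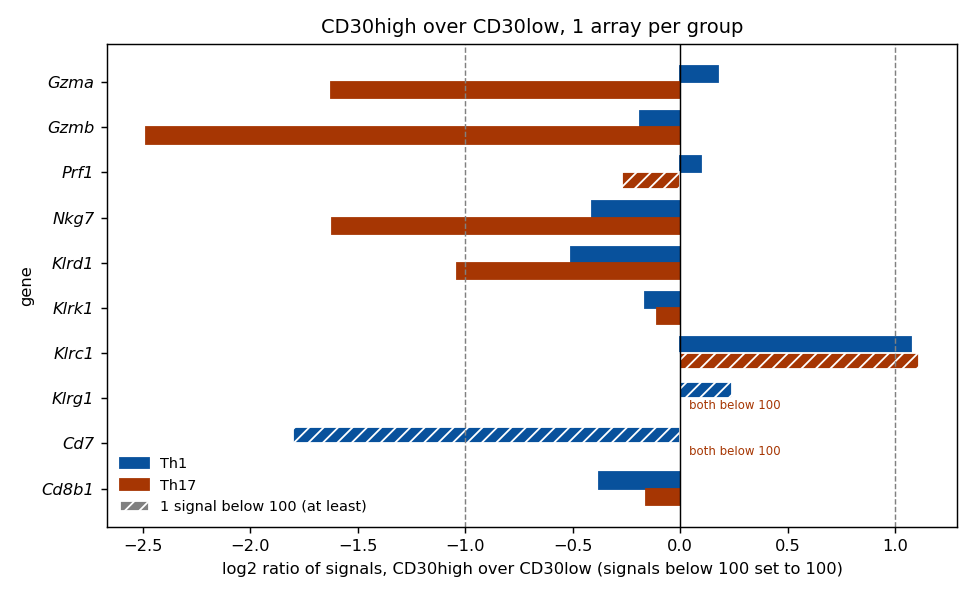
Log2 ratio of CD30high over CD30low signals of the brightest probe set of each of the 10 genes in Th1 and in Th17 cells, with 1 array per group, signals floored at 100, hatched bars for lower bounds and dashed lines at 2-fold. Gzmb, Gzma and Nkg7 stood at -2.49, -1.63 and -1.62 in Th17 cells against -0.19, 0.18 and -0.41 in Th1 cells, and Klrc1 at 1.07 in Th1 cells.

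In Th17 cells, 4 of the 5 genes at the signal limit were lower in CD30high cells, namely Gzmb, Gzma, Nkg7 and Klrd1. None was higher, and Cd8b1 did not pass. Nkg7, at 336 against 109, and Klrd1, at 355 against 173, reached the limit on the CD30low array only. Klrc1, at 95.0 (CD30low) and 216 (CD30high), was below the limit on both arrays and so was not counted. Over all 7786 genes at the limit 3.66% were lower and 3.94% higher, 7.60% in all. The median log2 ratio was -0.65 over the 8 genes measured and 0.02 over all genes. Gzmb had rank 33 from the lowest of the 7786 ratios, Gzma 120, Nkg7 122 and Klrd1 268. Klrd1, at -1.04, was the gene just past the fold limit and had -0.95 after quantile normalization, below it. With a floor of 200, Nkg7 and Klrd1 no longer passed. Markers of neutrophils moved with this comparison. Of 6 named markers, 4 reached 100 on the CD30low Th17 array and 2 on the CD30high Th17 array. Their summed signal was 7835 against 1975 there, and 95.7 against 231 in Th1 cells. S100a8 read 5192 against 1210 and S100a9 2017 against 527 in the Th17 populations, and the part of these markers in the result was not tested. All 7 T cell markers also had ratios below 1 in Th17 cells, with a median log2 ratio of -0.47, and 0 passed the fold rule. In Th1 cells 5 had ratios below 1 and 2 above, with a median of -0.28. The part of the T cell markers was not tested either. The summed signal of NK cell markers was between 267 and 356 over 6 named genes on the 4 arrays, and of these Eomes in the Th1 populations and Tyrobp in CD30high Th17 cells reached 100.

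The CD30 difference of Th17 cells was set against that of Th1 cells as a difference of log2 ratios, which with 1 array per group is a description without a test. It was -2.30 for Gzmb, -1.80 for Gzma and -1.21 for Nkg7. The Gzmb value includes signals near the top of the scale. Over all 8227 genes with a signal of 300 on any array 3.40% were at -1 or below, and 6.59% were at least 1 in size in either direction. Klrc1 had 0.04 by its brighter probe set, where the Th17 ratio is a lower bound at signals below 300. By its other probe set Klrc1 had -0.24. The value of 1.80 for Cd7 rests on Th17 signals below 100 in both gates.

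Between the lineages, the CD30low populations were compared first. Of 7 genes at the signal limit, 5 were lower in Th17 cells and none was higher. Of these, Klrk1 and Cd7 reached the limit on the Th1 array only. Klrd1 was 17.5-fold, Klrk1 15.1-fold, Nkg7 10.7-fold, Gzma 2.74-fold and Cd7 at least 3.49-fold lower, against 5.83% lower, 3.53% higher and 9.35% in either direction of 7857 genes. Gzmb, at 1.71-fold, and Cd8b1, at 1.80-fold, did not pass. The neutrophil markers moved with the lineage too, with S100a8 at least 51.9-fold and S100a9 at least 20.2-fold higher in CD30low Th17 than in CD30low Th1 cells, and their part in the result was not tested. Quantile normalization moved the Gzmb log2 ratio from -0.77 to -0.32. In CD30high cells 6 of 7 genes were lower in Th17 cells, Klrd1 25.2-fold, Nkg7 24.6-fold, Klrk1 14.6-fold, Gzma 9.55-fold, Gzmb 8.40-fold and Klrc1 2.86-fold, against 6.86% lower, 4.98% higher and 11.8% in either direction of 7979 genes. Here Klrd1, Nkg7, Klrk1 and Klrc1 reached the signal limit on the Th1 array only. Klrd1 and Nkg7 had ranks 6 and 8 from the lowest. Median scaling kept these calls while the genes passing over the whole table turned from 277 higher and 458 lower to 559 and 302 in CD30low cells, and from 397 and 547 to 1129 and 288 in CD30high cells.

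**Figure D3:**
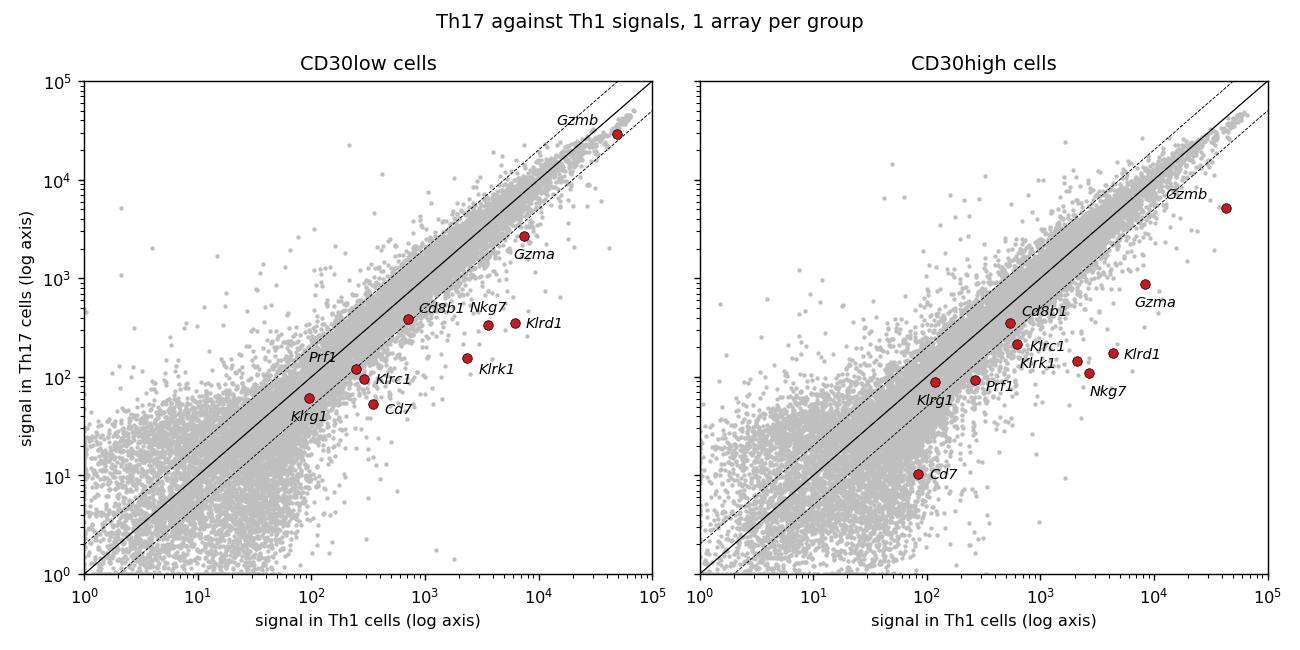
Th17 signal against Th1 signal (both log axes) for the brightest probe set of each of 18193 genes in grey and the 10 genes in red, in CD30low cells on the left and CD30high cells on the right, with the line of equal signals and dashed lines at 2-fold. Klrd1, Nkg7 and Klrk1 lay far below the diagonal in both panels, and Gzmb lay within the 2-fold lines in CD30low cells and 8.40-fold below the diagonal in CD30high cells.

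The effects common to both arrays of a lineage or a gate were tested with limma on all 4 arrays, with lineage and gate as terms, over the 8438 genes whose signals averaged 200 or more. Klrk1, at 156 and 145 in Th17 cells, and Klrc1, at 95.0 and 216 there, met this average through their Th1 signals. The fit leaves 1 residual degree of freedom, into which any difference between the lineages in the CD30 effect falls. The CD30low and CD30high arrays of a lineage stand in for its replicates here. The SE and p for the lineage thus do not cover variation between cultures or animals, and lineage and animal source cannot be told apart. Of the 7 cytotoxic and NK receptor genes tested, 4 were lower in Th17 than in Th1 cells, and none was higher, against 3.19% lower, 1.56% higher and 4.75% in either direction over all genes. With the genes chosen after earlier results were known, this count is a description. The log2 difference was -4.39 for Klrd1 (SE 0.19, adjusted p = 0.00963 by limma with Benjamini-Hochberg adjustment), -3.89 for Klrk1 (SE 0.17, adjusted p = 0.00963), -4.02 for Nkg7 (SE 0.33, adjusted p = 0.0206) and -1.53 for Klrc1 (SE 0.25, adjusted p = 0.0499672). Klrc1 lay at the threshold and did not pass under 4 of the alternatives. Without the filter on low signals limma called 0 of 18193 genes, 1997 of which had an unadjusted p under 0.05, and Klrd1, Klrk1 and Nkg7 had adjusted p of 0.391 to 0.396. Gzma, at -2.35 (SE 0.45, adjusted p = 0.0610), Gzmb, at -1.92 (SE 0.55, adjusted p = 0.112), and Cd8b1, at -0.74 (adjusted p = 0.0968), did not pass. After quantile normalization Gzma passed (adjusted p = 0.0261).

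For the gate, limma called 0 of 8438 genes, 866 of which had an unadjusted p under 0.05. Klrc1 had the smallest p of the 7 genes, with a log2 difference of 1.09 (SE 0.25, adjusted p = 0.439). Klrd1 had -0.77 (SE 0.19, adjusted p = 0.439), Nkg7 -1.01 (SE 0.33, adjusted p = 0.443), Gzmb -1.34 (SE 0.55, adjusted p = 0.499) and Gzma -0.72 (SE 0.45, adjusted p = 0.613). No CD30 difference of these genes common to both lineages was therefore shown by the test.

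The other granzymes followed in part. Gzmc, the neighbour of Gzmb on chromosome 14, read 691 and 547 in Th1 cells of the CD30low and CD30high gates, 417 in CD30low Th17 cells and 37.9 in CD30high Th17 cells, at least 4.17-fold lower in the Th17 comparison. Gzmk, the neighbour of Gzma on chromosome 13, was above 100 in the Th1 populations only, at 193 and 259. Gzmd, Gzme and Gzmg were above 100 in CD30high Th1 cells only, at 234, 160 and 263, and were between 0.842 and 33.7 elsewhere. These 3 granzymes are near-identical copies whose probes may share targets, and their signals stayed below 300. Mcpt8, a granzyme-like protease of basophils listed with them, was above 100 only in CD30high Th17 cells, at 470.

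Of 15 genes for granule cargo and exocytosis, all at the signal limit, 1 passed in each CD30 comparison, against 1.28% of all genes in Th1 and 7.60% in Th17 cells. Stx11, which encodes a syntaxin needed for granule release, was that gene, with 319 (CD30low) and 688 (CD30high) in Th1 cells and 944 (CD30low) and 2516 (CD30high) in Th17 cells. It was thus highest where Gzmb was lowest, 2.16-fold higher in CD30high Th1 and 2.67-fold higher in CD30high Th17 cells. Ctsw, the gene of cathepsin W of cytotoxic lymphocytes, read 5960, 3299, 639 and 468 in the same order and was 9.33-fold lower in Th17 than in Th1 cells of the CD30low gate. Srgn, whose proteoglycan binds granzymes in the granule, differed by at most 1.41-fold in the comparisons made here.

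Of the granzyme inhibitors at the signal limit, 2 of 3 were lower in CD30high Th17 cells, against 3.66% of all genes. Serpinb9, an inhibitor of granzyme B, read 631 and 464 in the Th1 populations and 570 in CD30low against 251 in CD30high Th17 cells, 2.27-fold lower. In Th17 cells Serpinb9 reached the limit on the CD30low array only. Serpinb6b, of the same serpin family, read 3069 and 1754 in the Th1 populations and 1627 against 539 in the Th17 populations, 3.02-fold lower. Among death ligands Fasl, which triggers the Fas receptor, read 1380, 838, 101 and 26.1 in the order Th1 CD30low, Th1 CD30high, Th17 CD30low, Th17 CD30high, and Lta, a TNF family cytokine, ran the other way at 928, 1832, 3468 and 8423.

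Of 25 named other NK receptors and adaptors, 8 were at the signal limit in the Th1 comparison and none passed, against 1.28% of all genes. All 10 that reached 100 had a ratio below 1, as did 5173 of all 10351 genes that reached 100, and their median log2 ratio was -0.39 against 0.00. In Th17 cells 2 of 6 were lower, against 3.66% of all genes, and none was higher. Cd96, a receptor for nectin-like ligands, read 3593, 2137, 741 and 104 and was 7.16-fold lower in CD30high Th17 cells. Slamf6, a SLAM family receptor, was 4.69-fold lower there, at 148 against 695. In Th17 cells Cd96 and Slamf6 reached the signal limit on the CD30low array only. Hcst, the gene of the NKG2D adaptor DAP10, read 3005, 1644, 1027 and 672 and passed in neither CD30 comparison, while the alternative adaptor gene Tyrobp was between 3.41 and 112. By limma 4 of the 8 tested, Cd96, Hcst, Klrb1f and Fcgr3, were lower in Th17 cells, against 3.19% of all genes, and none was higher.

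The lectin-like receptor genes Klrd1, Klrk1 and Klrc1 lie near each other on chromosome 6. Klre1, next to Klrd1, was between 13.1 and 55.1 on the 4 arrays. Klrc3 and Klrc2, which lie between Klrk1 and Klrc1, were below 10 on all 4. These 3 neighbours thus stayed below the floor. Of the ligands of the proteins studied here, 7 had a named probe set. The classical MHC genes H2-K1 and H2-D1, whose products CD8 binds, were lower in Th17 than in Th1 cells by limma, against 3.19% of all genes. In CD30low cells they were 1.76-fold and 1.82-fold lower and did not pass the fold rule. In CD30high cells H2-K1 passed at 2.13-fold and H2-D1, at 1.996-fold, did not. The strain behind each array is not given, so lineage and strain cannot be told apart here. Of the ligand genes of NKG2D, Ulbp1 read 14.0 to 107 and H60c stayed below 100, and the CD7 ligand gene Sectm1a read 5.88 to 30.4.

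Several regulators of cytotoxic differentiation were lower in Th17 than in Th1 cells. Tbx21, the gene of T-bet, read 2189.8 in CD30low Th1 and 2352 in CD30high Th1 cells and 281 and 243 in CD30low and CD30high Th17 cells, and so was close between the gates of a lineage. Runx3, a factor of the CD8 program, read 2527, 2465, 2469 and 3080 and did not pass in any comparison. Eomes, the T-box factor of CD8 and NK cells, was at 176 and 133 in the Th1 populations and below 100 in the Th17 populations. By limma 6 of the 27 regulators tested were lower in Th17 cells (Tbx21, Hopx, Prdm1, Stat4, Il18r1 and Il18rap), against 3.19% of all genes, and none was higher. This list too was chosen after earlier results were known, so the count is a description.

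Of 24 regulators at the signal limit in the Th17 comparison, 4 were higher and 3 lower in CD30high cells, against 3.94% higher and 3.66% lower over all genes. Klf2, a factor that holds T cells in a resting state, gave 3620 and 2608 in the Th1 populations and 3260 against 143 in the Th17 populations, 22.8-fold lower. Gata3, the Th2 factor, was lower in CD30high cells of both lineages, with 1176 against 484 in Th1 and 1333 against 211 in Th17 cells. Il18rap, a chain of the IL-18 receptor, was 2.43-fold lower, at 304 against 739. The higher genes were Zeb2, a repressor active in terminal effector cells, at least 5.11-fold, Nfil3, 3.11-fold, Il12rb1, 2.94-fold, and Il2ra, 2.01-fold. In Th17 cells Klf2 and Gata3 reached the limit on the CD30low array only, and Zeb2 and Il12rb1 on the CD30high array only. The median log2 ratio of the 28 regulators measured was -0.08.

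**Figure D4:**
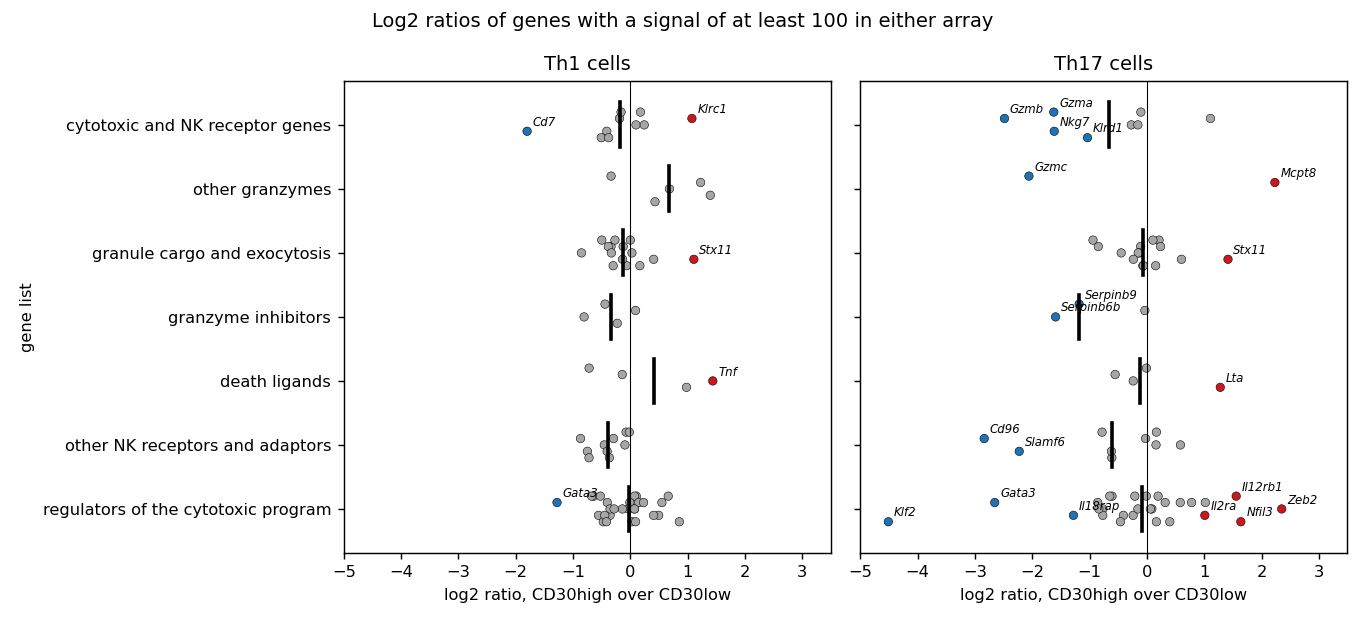
Log2 ratios of CD30high over CD30low signals in Th1 and in Th17 cells for the 10 genes and the related gene lists, with 1 point per gene that reached 100 in either array of the pair blue and red points for genes lower or higher by the fold rule, and a bar at the median of lists with at least 3 such genes. The medians were -0.18 and -0.65 for the 10 genes, -0.39 and -0.61 for other NK receptors and adaptors, and -0.14 and -0.07 for granule cargo and exocytosis.

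The genes with the most similar profiles were found by the distance between centred log2 signals, floored at 100, over the 4 arrays, among 8227 genes. With 4 points from 4 libraries, the distance is a description, and differences below the floor do not enter it. Gzmb was nearest to AA467197 (distance 0.11), which read 19434.9, 15602, 11361 and 2045 in the order Th1 CD30low, Th1 CD30high, Th17 CD30low, Th17 CD30high. Rasa3 (0.30) and Gzmc (0.46) came next. Gzma was nearest to Rasgrp2 (0.16), an exchange factor of the GTPase Rap, and Nkg7 to Klrd1 (0.56). Klrd1 was nearest to the chemokine receptor gene Cxcr6 (0.37) and Klrc1 to Me1 (0.24). The gene nearest to Klrk1 was the Y-linked Eif2s3y (0.22), a likeness that rests on the floor, since Eif2s3y was below 10 on the Th17 arrays and Klrk1 at 156 and 145.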

How the data were processed

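Total RNA of 4 sorted populations was labelled with biotin and hybridized to Affymetrix mouse arrays, 1 array per group. The intensity values deposited by the authors are linear probe set signals of the series table; the submitters' processing notes name Affymetrix Expression Console where the methods name GeneChip Operating Software, and neither states the summary algorithm or the scaling target. After trimming 2% at each end, the array means were 496.6 to 497.0, as a common scaling gives, so a change shared by most genes would not be seen. Median signals were 62.0 to 86.0, and 7394 to 7580 genes reached 300 on each array. The table had no detection calls and 0 columns of samples not used.

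Of 45037 probe sets, 34945 had a single gene symbol in the platform annotation, 34741 of which matched a current gene table; 932 had several symbols and 9160 were unnamed here. Each gene was represented by its probe set with the highest mean signal. Groups were taken from the sample titles. Log2 ratios were computed from the deposited signals floored at 100. The fold rule of 2-fold with a signal of 300 was used without a test. limma 3.58.1 in R 4.3.3 fitted lineage and gate with a variance trend and Benjamini-Hochberg adjustment at 0.05, and was tested on simulated data; genes whose signals averaged under 200 were left out. The 10 genes and the related lists were chosen with earlier results of these data known. All 10 were named with every probe set; of each related list, up to 4 genes per comparison with the largest changes among those reaching 300 and any list genes past the fold rule where these were 6 or fewer were open to naming, with the markers of other cell types and the 3 nearest profiles of each gene spanning at least 2 on the log2 scale. Promoters came from RefSeq (GRCm38.p6). Alternatives covered median scaling, quantile normalization, floors of 50 and 200, fold limits of 1.5 and 3, signal limits of 100 and 1000, the mean of probe sets or every probe set, and settings of limma. Python 3.11.15, numpy 2.4.6, pandas 2.3.3 and matplotlib 3.10.9 were used. Precision is limited by the number of arrays.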

Additional observations from a re-analysis of the deposited data

Results flagged for a closer look

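Gzma was set apart because its CD30 ratios ran in opposite directions in the lineages. Its log2 ratio of CD30high over CD30low cells was 0.18 in Th1 and -1.63 in Th17 cells, a difference of -1.80. The difference was not tested, since each group had 1 array, and the Th1 value became -0.06 when every array was scaled to a common median.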

How the results depend on the processing

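No ratio of the 10 genes that had passed the fold rule turned its direction under any alternative run, and causes of the shifts were not tested. In Th1 cells, 2 of the genes passed, against 1 with median scaling, with a floor of 200, with a fold limit of 3 and with the mean of probe sets, and 0 with a signal limit of 1000. In Th17 cells, 4 passed, against 2 with a floor of 200 and 2 with a signal limit of 1000. The differences between the lineages of at least 1 on the log2 scale numbered 4, against 2 with a floor of 200. Over all genes in Th1 cells, 100 passed, against 595 and 16 with fold limits of 1.5 and 3, 171 and 36 with signal limits of 100 and 1000, and 174 with every probe set. In Th17 cells, 592 passed, against 1451, 255, 297 with a signal limit of 1000, and 907 with every probe set. Between the lineages, 735 passed in CD30low cells, against 1964, 284, 393 and 1201, and 944 in CD30high cells, against 2269, 415, 526 and 1560, and 1417 with median scaling. Median scaling moved the median log2 ratio by -0.23 in Th1 cells and by 0.24 and 0.42 between the lineages in CD30low and CD30high cells. For the lineage, limma called 401 genes, against 150 without the variance trend, 759 after quantile normalization and 0 of 18193 without the filter on low signals, where 1997 had an unadjusted p under 0.05. Gzma passed after quantile normalization (adjusted p = 0.0261), Klrc1 did not with robust empirical Bayes, a floor of 50, the mean of probe sets or no filter, and Nkg7, Klrd1 and Klrk1 did not with no filter (adjusted p of 0.391 to 0.396). Of 200 log2 ratios of the 10 genes under alternatives, 167 moved by less than the scatter of probe sets. Many of these could not move. The mean of probe sets leaves the 8 genes with 1 probe set unchanged. A changed floor leaves a ratio unchanged where both signals lie above the old and the new floor. The count is therefore no measure of stability. With no replicate, leaving out an array was not possible for a ratio, and limma would have had no residual degree of freedom. The labels gave no replicate numbers to serve as a further block. For the gate, the lineage term of limma already sets the gates against each other within a lineage, as a paired analysis does.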
